A study of Homo sapiens with 24 samples.

Results

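The genes described here are 10 genes of LNCaP prostate cancer cells whose messenger RNA was lower with the androgen dihydrotestosterone (DHT), and whose response to the antiandrogen enzalutamide was measured in the same experiment. They are OPRK1, CNGA1, CAMK2N1, SLC44A1, DEGS2, MATN2, VWA2, COL5A1, MYOZ1 and C16orf89, out of 23207 gene symbols in the deposited tables. They were picked by name because DHT was known to lower them, or was seen to do so in these libraries. Their changes with DHT and enzalutamide are therefore what chose them, and are given below as a description without a test. No threshold defined the set. In NTC cells, between 27 and 504 of the 14558 genes tested fell further with DHT than the individual members did. The SIRT1 knockdown contrast was not part of the choice, so its effect on the same genes was tested. The stripped-serum comparisons still share libraries with the contrasts that chose the genes. The DHT libraries enter both the DHT and the enzalutamide contrasts, so the knockdown test with DHT is not independent of the choice.

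RNA sequencing covered 24 libraries in 8 groups of 3. All cells were LNCaP, an androgen-sensitive line from a prostate cancer metastasis that carries a mutant androgen receptor. All were transduced with a lentiviral hairpin at a multiplicity of infection of 10 and selected and grown in puromycin. The hairpin was against SIRT1, a deacetylase of the nucleus, or was a non-targeting control (NTC). In fetal bovine serum (FBS), which contains androgens, the groups were shSIRT1 cells and NTC cells, with no added agent. In charcoal-stripped serum, from which steroids have been removed, the groups were a SIRT1 knockdown labelled 10 and NTC cells. Each of these received 1 nM DHT with 10 µM enzalutamide, 1 nM DHT alone, or vehicle for 24 h. The sample records give 48 h in FBS and then 24 h in stripped serum for all of these groups. The cells are stable knockdown clones, so the loss of SIRT1 and the choice of clone cannot be told apart. The labels do not state whether shSIRT1 and 10 carry the same hairpin, nor whether the 3 libraries of a group came from separate cultures. The p-values therefore measure the spread between these libraries, which may be technical.

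The androgen receptor is a transcription factor that enters the nucleus when it binds DHT. There it binds DNA elements built from copies of a short half-site, and is best known for switching on genes such as KLK3, which encodes prostate-specific antigen. A second class of genes is lowered by androgen, through receptor binding nearby, through induced repressors or through loss of other activators. Enzalutamide competes with DHT for the receptor and hinders its binding to DNA, so genes of this class can return when it is added. The 10 genes have unrelated functions. OPRK1 encodes the kappa opioid receptor, a receptor for dynorphin peptides. CNGA1 encodes a subunit of the cyclic GMP-gated cation channel of rod photoreceptors. CAMK2N1 encodes an inhibitor of calcium/calmodulin-dependent kinase II. SLC44A1 encodes a choline transporter. DEGS2 encodes a desaturase and hydroxylase that acts on dihydroceramides. MATN2 encodes a matrilin, an adaptor of the extracellular matrix. VWA2 encodes a secreted matrix protein with von Willebrand factor A domains. COL5A1 encodes a chain of type V collagen. MYOZ1 encodes a Z-disc protein of skeletal muscle that binds calcineurin. C16orf89 is named here without a function.

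The promoters of the genes were searched for the receptor's half-site because the genes move together with DHT. RefSeq windows on GRCh38.p14, covering 250 bases before to 50 bases after the start site, were at hand for 6 of the 10 genes, with 9 windows in all. These genes were SLC44A1, VWA2, MYOZ1, CNGA1, COL5A1 and DEGS2. The half-site searched was AGAACA, read as TGTTCT on the other strand. It was found in 3 of the 6 genes, SLC44A1, MYOZ1 and COL5A1, beside 17.5% of 27305 genes and 14.8% of 35116 windows overall. The full element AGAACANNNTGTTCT was in none of the 9 windows and in 1 of all 35116. The 250 bases before the start are printed for the 3 genes with a match and for DEGS2, the gene without a match whose level differed most with the knockdown. Capitals mark the half-site. A match is a description of these letters and does not show a binding site.
SLC44A1, chr9:105244401-105244650, plus strand, with the half-site beginning 223 bases before the start: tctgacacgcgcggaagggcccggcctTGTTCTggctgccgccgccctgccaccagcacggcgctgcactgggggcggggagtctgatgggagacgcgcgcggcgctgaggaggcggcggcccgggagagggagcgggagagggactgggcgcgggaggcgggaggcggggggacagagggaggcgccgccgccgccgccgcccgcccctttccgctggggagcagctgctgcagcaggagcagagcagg
MYOZ1, chr10:73641475-73641724, minus strand, with the half-site beginning 12 bases before the start: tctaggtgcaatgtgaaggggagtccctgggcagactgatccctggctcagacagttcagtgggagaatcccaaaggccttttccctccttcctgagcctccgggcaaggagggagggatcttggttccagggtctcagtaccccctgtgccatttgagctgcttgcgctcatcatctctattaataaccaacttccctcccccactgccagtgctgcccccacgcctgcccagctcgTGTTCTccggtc
COL5A1, chr9:134641553-134641802, plus strand, with the half-site beginning 247 bases before the start: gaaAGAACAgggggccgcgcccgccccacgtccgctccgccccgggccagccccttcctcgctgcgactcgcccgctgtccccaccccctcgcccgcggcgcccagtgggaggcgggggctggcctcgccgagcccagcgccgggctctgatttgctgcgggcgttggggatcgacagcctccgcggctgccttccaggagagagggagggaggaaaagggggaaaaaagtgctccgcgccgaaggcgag
DEGS2, chr14:100159646-100159895, minus strand, with no half-site: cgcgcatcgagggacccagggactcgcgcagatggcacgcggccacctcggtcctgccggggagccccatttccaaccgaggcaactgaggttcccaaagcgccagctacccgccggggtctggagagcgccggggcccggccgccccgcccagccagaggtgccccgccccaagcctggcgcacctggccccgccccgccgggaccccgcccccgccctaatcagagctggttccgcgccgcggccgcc

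The libraries held 25.2 to 35.1 M counts in stripped serum and 11.9 to 14.2 M counts in FBS. SIRT1 itself was 13.1 to 21.4 CPM, the counts scaled to the size of the library, in knockdown libraries and 46.6 to 61.4 CPM in NTC libraries of the stripped-serum set. In FBS it was 7.21 to 8.68 CPM in shSIRT1 libraries and 36.8 to 40.0 CPM in NTC libraries, so each library fitted its label. KLK3 rose with DHT by 3.97 (log2, SE 0.16, adjusted p = 4.58e-11) in knockdown cells and by 3.23 (SE 0.15, adjusted p = 3.96e-10) in NTC cells, by edgeR's quasi-likelihood test. Summed levels of 9 LNCaP markers were 3438 to 4657 CPM over all libraries. Some libraries stood apart from others of their group, by the chi-square per gene of their counts, which is near 1 for sampling noise alone. In FBS it was 1.60 in shSIRT1 cells and 1.55 in NTC cells between libraries 1 and 2, and 8.89 to 9.39 against library 3. In stripped serum it was largest between knockdown DHT libraries 1 and 2, at 38.6. Results were therefore also computed without each library. Markers of basal cells summed to 22.9 to 57.7 CPM in stripped serum, with VIM alone at 19.7 to 53.6 CPM, and to 10.9 to 16.8 CPM in FBS. Markers of leukocytes and endothelium summed to 9.86 to 25.3 CPM over all libraries. In each list 5 of 9 genes were under 1 CPM in every library.

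Per unit of transcript length, 2 of the genes were abundant and the others low. In NTC cells with vehicle, CAMK2N1 stood at 179 TPM, a level scaled for transcript length and library size, and SLC44A1 at 110 TPM. OPRK1 followed at 11.3, MYOZ1 at 8.09, VWA2 at 7.01, C16orf89 at 4.85, MATN2 at 2.99, DEGS2 at 2.52, CNGA1 at 1.62 and COL5A1 at 0.77 TPM. All 10 passed the filter on low counts in stripped serum, and 7 did so in FBS. MATN2, MYOZ1 and DEGS2 were too low to test there. All other levels below are CPM, which compare 1 gene between libraries and not genes with each other.

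**Figure D1:**
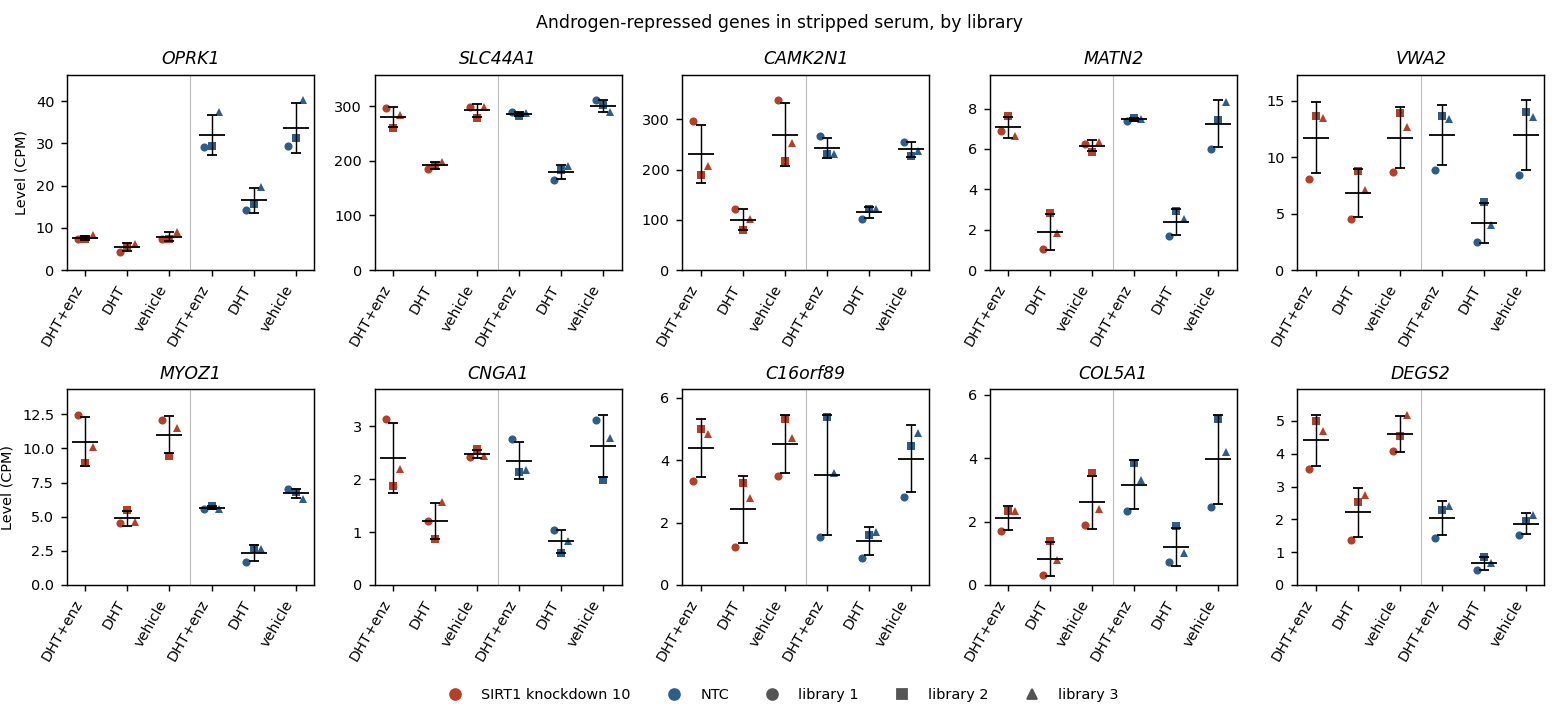
Levels of the 10 genes in the 18 stripped-serum libraries, in CPM on linear axes from 0. Points are libraries, shaped by library number, in red for SIRT1 knockdown 10 and blue for NTC, and black bars give the mean and SD of 3. All genes dip in the DHT group of both cell lines, OPRK1 lies lower in every knockdown group, and MYOZ1 and DEGS2 lie higher.

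Among the signalling genes, OPRK1 had the largest gap between the cell lines. OPRK1 in knockdown cells stood at 7.28, 7.45 and 8.22 CPM with DHT plus enzalutamide, 4.27, 5.79 and 6.21 CPM with DHT, and 7.41, 7.27 and 9.07 CPM with vehicle. OPRK1 in NTC cells stood at 29.3, 29.3 and 37.5 CPM with DHT plus enzalutamide, 14.2, 15.7 and 19.8 CPM with DHT, and 29.4, 31.3 and 40.3 CPM with vehicle. The DHT libraries lay below the others in both cell lines, and even the highest knockdown library lay below the lowest NTC library. CNGA1 in knockdown cells stood at 3.14, 1.86 and 2.19 CPM with DHT plus enzalutamide, 1.21, 0.869 and 1.56 CPM with DHT, and 2.42, 2.56 and 2.44 CPM with vehicle. CNGA1 in NTC cells stood at 2.75, 2.14 and 2.17 CPM with DHT plus enzalutamide, 1.03, 0.606 and 0.829 CPM with DHT, and 3.13, 1.98 and 2.78 CPM with vehicle. The CNGA1 messenger RNA was low throughout, and its DHT libraries lay below the others in each cell line while the cell lines overlapped. CAMK2N1 in knockdown cells stood at 297, 189 and 206 CPM with DHT plus enzalutamide, 121, 79.6 and 102 CPM with DHT, and 338, 216 and 252 CPM with vehicle. CAMK2N1 in NTC cells stood at 266, 231 and 232 CPM with DHT plus enzalutamide, 102, 121 and 121 CPM with DHT, and 256, 228 and 237 CPM with vehicle. Library 1 was the highest in 5 of its 6 groups, by most in the knockdown groups, and the DHT libraries were separate from the rest.

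Of the genes of lipid supply, SLC44A1 was nearly the same in the 2 cell lines and DEGS2 was not. SLC44A1 in knockdown cells stood at 296, 259.6 and 284 CPM with DHT plus enzalutamide, 185, 191 and 199 CPM with DHT, and 299, 278 and 299 CPM with vehicle. SLC44A1 in NTC cells stood at 289, 281 and 287 CPM with DHT plus enzalutamide, 165, 184 and 189.7 CPM with DHT, and 310.3, 301 and 288 CPM with vehicle. SLC44A1 had the tightest replicates of the set, and its DHT groups were clearly separate from the others. DEGS2 in knockdown cells stood at 3.53, 5.0 and 4.68 CPM with DHT plus enzalutamide, 1.37, 2.53 and 2.73 CPM with DHT, and 4.07, 4.54 and 5.18 CPM with vehicle. DEGS2 in NTC cells stood at 1.43, 2.28 and 2.39 CPM with DHT plus enzalutamide, 0.470, 0.842 and 0.656 CPM with DHT, and 1.51, 1.94 and 2.14 CPM with vehicle. Each knockdown group lay above the matching NTC group without overlap, and in the knockdown cells the DHT level was close to the NTC vehicle level.

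The matrix genes were lower in library 1 of most groups. MATN2 in knockdown cells stood at 6.90, 7.65 and 6.65 CPM with DHT plus enzalutamide, 1.05, 2.82 and 1.84 CPM with DHT, and 6.24, 5.85 and 6.37 CPM with vehicle. MATN2 in NTC cells stood at 7.40, 7.56 and 7.46 CPM with DHT plus enzalutamide, 1.69, 2.93 and 2.52 CPM with DHT, and 5.98, 7.46 and 8.30 CPM with vehicle. The DHT libraries were far below the rest in both cell lines, which overlapped. VWA2 in knockdown cells stood at 8.09, 13.6 and 13.5 CPM with DHT plus enzalutamide, 4.51, 8.76 and 7.13 CPM with DHT, and 8.66, 13.9 and 12.7 CPM with vehicle. VWA2 in NTC cells stood at 8.87, 13.7 and 13.3 CPM with DHT plus enzalutamide, 2.44, 5.99 and 4.01 CPM with DHT, and 8.40, 14 and 13.5 CPM with vehicle. In knockdown cells the highest DHT library overlapped the lowest of the other groups, and in NTC cells no library did. COL5A1 in knockdown cells stood at 1.69, 2.32 and 2.32 CPM with DHT plus enzalutamide, 0.322, 1.38 and 0.780 CPM with DHT, and 1.90, 3.52 and 2.41 CPM with vehicle. COL5A1 in NTC cells stood at 2.32, 3.85 and 3.29 CPM with DHT plus enzalutamide, 0.720, 1.85 and 1.00 CPM with DHT, and 2.45, 5.23 and 4.18 CPM with vehicle. This collagen gene was the lowest of the set per length, and its spread within groups was wide.

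MYOZ1 and C16orf89 complete the set. MYOZ1 in knockdown cells stood at 12.5, 8.92 and 10.1 CPM with DHT plus enzalutamide, 4.55, 5.51 and 4.61 CPM with DHT, and 12.1, 9.47 and 11.5 CPM with vehicle. MYOZ1 in NTC cells stood at 5.59, 5.77 and 5.6 CPM with DHT plus enzalutamide, 1.66, 2.69 and 2.63 CPM with DHT, and 7.02, 6.78 and 6.32 CPM with vehicle. Every knockdown group lay above its NTC counterpart, and the DHT libraries lay below the others in both. C16orf89 in knockdown cells stood at 3.33, 5.0 and 4.85 CPM with DHT plus enzalutamide, 1.21, 3.26 and 2.80 CPM with DHT, and 3.49, 5.33 and 4.72 CPM with vehicle. C16orf89 in NTC cells stood at 1.55, 5.38 and 3.60 CPM with DHT plus enzalutamide, 0.877, 1.62 and 1.69 CPM with DHT, and 2.82, 4.45 and 4.85 CPM with vehicle. Its NTC library 1 with DHT plus enzalutamide fell within the range of the DHT libraries. Library 1 was the lowest of its group in all 6 stripped-serum groups for VWA2, C16orf89, COL5A1 and DEGS2, which holds for 7.4% of the 14558 genes tested. The results were therefore also computed without each library and with the library number as a block, and both are given where they changed a call.

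With DHT, the 10 genes were at a median of 48.6% of their vehicle level in knockdown cells and 34.7% in NTC cells. The range was 31 to 68.5% in knockdown cells and 30.1 to 59.8% in NTC cells. The DHT level was under 50% of vehicle for 6 genes in knockdown cells and for 9 in NTC cells. The median log2 change was -1.03 in knockdown cells and -1.53 in NTC cells, beside 0.0077 in knockdown cells and -0.0020 in NTC cells over all 14558 genes. In NTC cells COL5A1 had the lowest value, -1.73 (SE 0.38), and SLC44A1 the highest, -0.74 (SE 0.06). In knockdown cells MATN2 had the lowest, -1.68 (SE 0.23), and OPRK1 the highest, -0.54 (SE 0.17). Groups did not overlap for 9 of 10 genes in knockdown cells, where 14.1% of all genes were separate and lower, and for 10 of 10 in NTC cells, where 21.1% were. The gene that overlapped was VWA2. These counts follow from how the genes were chosen. In bulk RNA, fewer cells that express a gene and less of its RNA per cell cannot be told apart.

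Adding enzalutamide to DHT brought the genes to a median of 96.3% of vehicle in knockdown cells and 95.2% in NTC cells. The range was 80.9% for COL5A1 to 115% for MATN2 in knockdown cells, and 79.8% for COL5A1 to 109% for DEGS2 in NTC cells. Against DHT alone, the median log2 change was 0.98 in knockdown cells and 1.36 in NTC cells. Groups did not overlap for 9 of 10 genes in knockdown cells, where 14.2% of all genes were separate and higher, and for 9 of 10 in NTC cells, where 21.7% were. The overlapping genes were VWA2 in knockdown cells and C16orf89 in NTC cells. Between DHT plus enzalutamide and vehicle, the median log2 difference was -0.05 in knockdown cells and -0.07 in NTC cells, and 1 gene in each cell line had separate groups. Leaving out 1 library moved the median to between -0.11 and -0.023 in knockdown cells, by over 1.5 times without library 1 or 3 with vehicle or library 3 with DHT plus enzalutamide. In NTC cells it moved to between -0.12 and -0.028, by over 1.5 times without library 1 or 3 with vehicle or library 1 with DHT plus enzalutamide. The gene with separate groups was MATN2 in knockdown cells, at 7.06 ± 0.52 CPM with DHT plus enzalutamide and 6.15 ± 0.27 CPM with vehicle (SD, n = 3 each). It was MYOZ1 in NTC cells, at 5.66 ± 0.10 CPM with DHT plus enzalutamide and 6.71 ± 0.36 CPM with vehicle. Such separation was seen for 9.4% of all genes in knockdown cells and 9.07% in NTC cells. KLK3, which rose with DHT, differed from vehicle under DHT plus enzalutamide by 1.10 (log2, SE 0.18, adjusted p = 0.053) in knockdown cells and by 0.63 (SE 0.14, adjusted p = 1) in NTC cells.

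**Figure D2:**
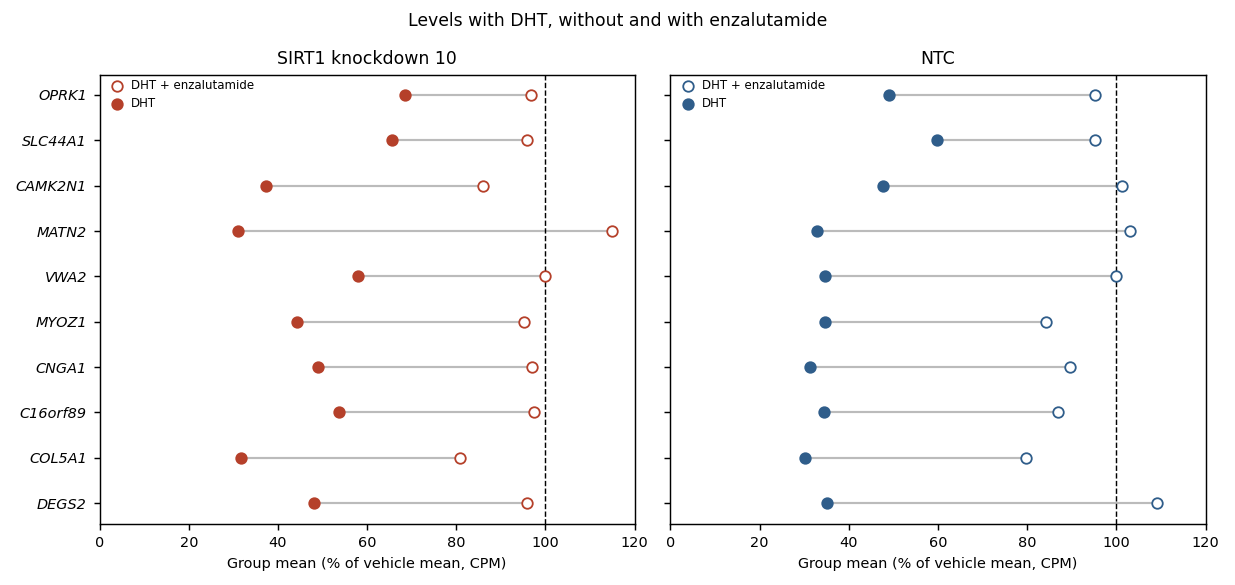
Mean level of each gene as a percentage of its vehicle mean in the same cells, with DHT (filled) and with DHT plus enzalutamide (open), for SIRT1 knockdown 10 on the left and NTC on the right. Filled points lie at 31 to 68.5% in knockdown cells and 30.1 to 59.8% in NTC cells, and open points lie at 80.9 to 115% in knockdown cells and 79.8 to 109% in NTC cells, around the dashed line at 100%.

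The size of the DHT change was set against the cell line as an estimate only, since it is built from the contrasts that chose the genes. The change in knockdown cells minus that in NTC cells was above 0, meaning a smaller fall in knockdown cells, for 8 of 10 genes, with a median of 0.41 on the log2 scale. That median was 0.20 without the NTC DHT library 1, and 0.20 on log2 TPM. It was 0.76 (SE 0.43) for VWA2, 0.66 (SE 0.56) for C16orf89, 0.64 (SE 0.36) for CNGA1, 0.49 (SE 0.23) for OPRK1 and 0.47 (SE 0.39) for DEGS2. MYOZ1 had 0.36 (SE 0.22), SLC44A1 0.13 (SE 0.08) and COL5A1 0.10 (SE 0.59). CAMK2N1 had -0.35 (SE 0.24) and MATN2 -0.07 (SE 0.32). These estimates are under 2 standard errors except that of OPRK1. With the library number as a block, OPRK1, VWA2, CNGA1, C16orf89 and CAMK2N1 exceeded 2 standard errors. Neither statement is a test, since the genes were chosen on these libraries, and no conclusion about the knockdown is drawn from them. The enzalutamide change in knockdown minus NTC cells had a median of -0.33, with 8 of 10 genes below 0. It was -0.13 without the NTC DHT library 1, -0.15 without the NTC library 2 with DHT plus enzalutamide, -0.16 without the knockdown DHT library 2, and -0.15 on log2 TPM. Both differences share the DHT libraries, so they are not separate evidence.

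SIRT1 knockdown changed 3 of the 10 genes in stripped serum, the same 3 with vehicle, with DHT and with DHT plus enzalutamide. OPRK1 was lower and MYOZ1 and DEGS2 were higher each time, and the remaining 7 were called in none of the 3 comparisons. With the library number as a block, COL5A1 was called as well with vehicle and with DHT plus enzalutamide, and VWA2 and C16orf89 with DHT. The block called 6558 of all 14558 genes with vehicle, 7543 with DHT and 6423 with DHT plus enzalutamide. A gene was called at an adjusted p under 0.05 in edgeR's quasi-likelihood test. Without the block, 34.6% of all genes were called with vehicle, 43% with DHT and 34.6% with DHT plus enzalutamide. The 3 of 10 is thus no more than the background. Of all genes, 19.1% were called lower and 15.5% higher with vehicle, 23.5% lower and 19.5% higher with DHT, and 19.2% lower and 15.4% higher with DHT plus enzalutamide.

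OPRK1 was 4.26-fold lower with vehicle, at 7.91 ± 1.00 CPM in knockdown cells and 33.7 ± 5.82 CPM in NTC cells (SD, n = 3 each). Its log2 change was -2.09 (SE 0.15, adjusted p = 2.96e-08 by edgeR's quasi-likelihood test). With DHT it was 3.03-fold lower, at 5.42 ± 1.02 CPM in knockdown cells and 16.5 ± 2.92 CPM in NTC cells, a log2 change of -1.60 (SE 0.17, adjusted p = 7.05e-07). With DHT plus enzalutamide it was 4.18-fold lower, at 7.65 ± 0.50 CPM in knockdown cells and 32.0 ± 4.71 CPM in NTC cells, a log2 change of -2.06 (SE 0.16, adjusted p = 3.76e-08). The order of its group means was NTC with vehicle, NTC with DHT plus enzalutamide, NTC with DHT, then knockdown with vehicle, with DHT plus enzalutamide and with DHT. Only the vehicle and DHT plus enzalutamide groups of the same cell line overlapped with their neighbour in that order. The OPRK1 messenger RNA was thus lower in knockdown cells given vehicle than in NTC cells given DHT.

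DEGS2 was 2.46-fold higher with vehicle, at 4.59 ± 0.56 CPM in knockdown cells and 1.86 ± 0.32 CPM in NTC cells (log2 1.30, SE 0.24, adjusted p = 0.000446). With DHT it was 3.39-fold higher, at 2.21 ± 0.74 CPM in knockdown cells and 0.656 ± 0.19 CPM in NTC cells (log2 1.76, SE 0.30, adjusted p = 0.000124). With DHT plus enzalutamide it was 2.17-fold higher, at 4.4 ± 0.78 CPM in knockdown cells and 2.04 ± 0.52 CPM in NTC cells (log2 1.12, SE 0.24, adjusted p = 0.00144). DEGS1, the more widely expressed enzyme of the same family, differed by 0.61 with vehicle (log2, SE 0.12, adjusted p = 0.000755) and 0.51 with DHT plus enzalutamide (SE 0.12, adjusted p = 0.00295), both higher in knockdown cells. With DHT it had 0.18 (SE 0.12, adjusted p = 0.236) and was not called.

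MYOZ1 was 1.64-fold higher with vehicle, at 11 ± 1.38 CPM in knockdown cells and 6.71 ± 0.36 CPM in NTC cells (log2 0.72, SE 0.14, adjusted p = 0.000911). With DHT it was 2.11-fold higher, at 4.89 ± 0.53 CPM in knockdown cells and 2.33 ± 0.58 CPM in NTC cells (log2 1.08, SE 0.17, adjusted p = 7.04e-05). With DHT plus enzalutamide it was 1.85-fold higher, at 10.5 ± 1.8 CPM in knockdown cells and 5.66 ± 0.10 CPM in NTC cells (log2 0.89, SE 0.15, adjusted p = 0.000151). Markers of skeletal muscle were examined beside it. Of 8 such markers, 7 were under 1 CPM in every library, namely MYH1, MYH2, MYH7, ACTA1, CKM, DES and TNNT3. The eighth, MB, encodes myoglobin and averaged 115 CPM in knockdown cells and 85.8 CPM in NTC cells with vehicle, and 98.2 CPM in knockdown cells and 68.0 CPM in NTC cells with DHT. The summed list, 112 to 119 CPM in knockdown and 82.0 to 89.8 CPM in NTC libraries with vehicle, moved in the same direction as MYOZ1 through MB, while the defining myosins were near 0.

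**Figure D3:**
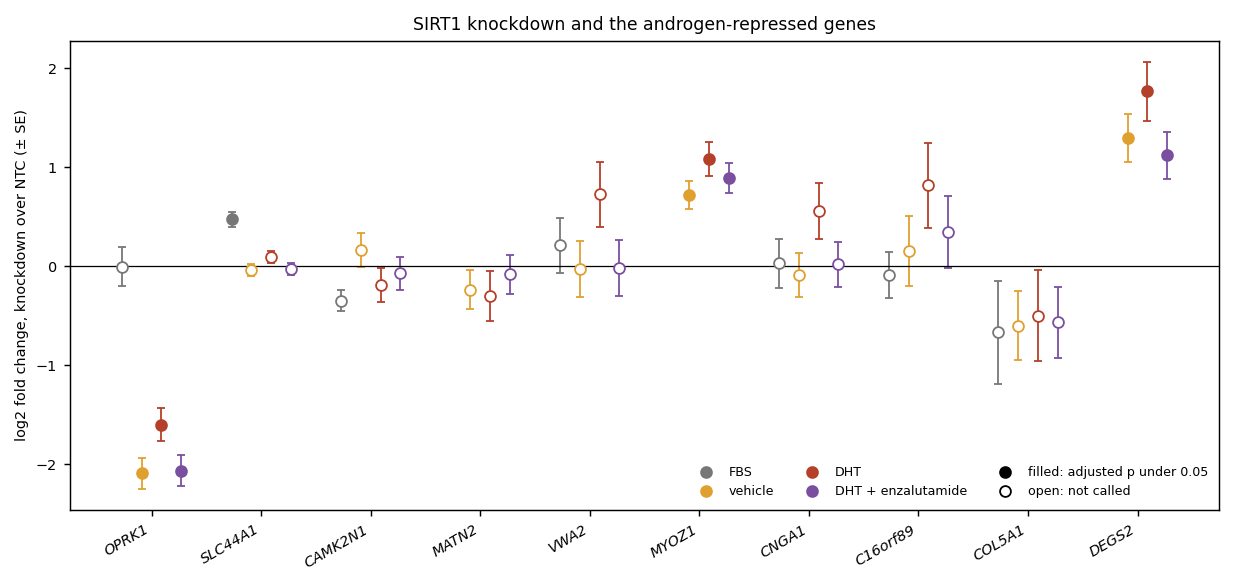
Log2 change of each gene in SIRT1 knockdown over NTC cells with its standard error, in FBS, with vehicle, with DHT and with DHT plus enzalutamide. Filled points passed an adjusted p of 0.05. OPRK1 lies between -2.09 and -1.60 in the 3 stripped-serum comparisons, MYOZ1 between 0.72 and 1.08 and DEGS2 between 1.12 and 1.76.

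The 7 genes without a call had small or imprecise knockdown changes. SLC44A1 differed by -0.04 (log2, SE 0.06) with vehicle, 0.09 (SE 0.06) with DHT and -0.03 (SE 0.06) with DHT plus enzalutamide, the narrowest estimates of the set. CAMK2N1 differed by 0.16 (SE 0.17), -0.19 (SE 0.17) and -0.07 (SE 0.17) in the same order of conditions. MATN2 differed by -0.24 (SE 0.20), -0.30 (SE 0.25) and -0.08 (SE 0.20). The knockdown and NTC libraries overlapped for these 3 genes in every condition. COL5A1 had log2 differences of -0.60 (SE 0.35), -0.50 (SE 0.46) and -0.57 (SE 0.36), with adjusted p of 0.195, 0.401 and 0.243. With the library number as a block it was called with vehicle (-0.59, adjusted p = 0.00753) and with DHT plus enzalutamide (-0.58, adjusted p = 0.012) by edgeR. VWA2 differed by -0.03 (SE 0.29) with vehicle, 0.73 (SE 0.33, adjusted p = 0.0819) with DHT and -0.02 (SE 0.29) with DHT plus enzalutamide. C16orf89 differed by 0.15 (SE 0.36), 0.82 (SE 0.43, adjusted p = 0.134) and 0.35 (SE 0.36), and CNGA1 by -0.09 (SE 0.22), 0.55 (SE 0.28, adjusted p = 0.124) and 0.02 (SE 0.23). For each of these genes the estimate with DHT was the highest of its 3. The genes were chosen on the same DHT libraries, so this pattern is not separate evidence. With the library number as a block, VWA2 was called with DHT at 0.72 (adjusted p = 3.73e-05) and C16orf89 at 0.79 (adjusted p = 0.00646). Without the knockdown DHT library 1, VWA2 was called at 0.94 (adjusted p = 0.0309) and C16orf89 at 1.12 (adjusted p = 0.0376). VWA2 was also called without the NTC DHT library 2, at 1.09 (adjusted p = 0.0216). MATN2 was called with DHT only without the knockdown DHT library 2, at -0.69 (adjusted p = 0.0323).

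In FBS, the same question was asked of shSIRT1 cells, and 1 of the 7 genes tested was called, where 2.71% of 14329 genes were. SLC44A1 was 125, 123 and 144 CPM in shSIRT1 libraries and 90.8, 90.7 and 100 CPM in NTC libraries, with no overlap. It was 1.39-fold higher, a log2 change of 0.48 (SE 0.08, adjusted p = 0.0131 by edgeR), where 0.509% of genes were called higher and 2.21% lower. The call was lost on leaving out the shSIRT1 library 1, the NTC library 1 or the NTC library 2, with adjusted p of 0.0509, 0.0811 and 0.0807 and log2 changes of 0.51, 0.45 and 0.45. It was also lost when libraries 1 and 2 of each group were summed into 1 (0.49, adjusted p = 0.193). CAMK2N1 was 52.9, 54.2 and 71.2 CPM in shSIRT1 libraries and 75.5, 74.9 and 76.8 CPM in NTC libraries, all shSIRT1 libraries being lower. Its change of -0.35 (SE 0.10) had an adjusted p of 0.125. It was called with the library number as a block (-0.36, adjusted p = 0.00869) and on leaving out the shSIRT1 library 3 (-0.50, adjusted p = 0.00517), the library in which it was highest. OPRK1 was 6.0, 5.31 and 4.92 CPM in shSIRT1 libraries and 4.63, 4.73 and 7.0 CPM in NTC libraries, which overlapped (log2 -0.0046, SE 0.20, adjusted p = 0.994). COL5A1 was 0.486, 0.241 and 1.61 CPM in shSIRT1 libraries and 1.33, 1.16 and 1.18 CPM in NTC libraries. Only the shSIRT1 library 3 put the COL5A1 groups into overlap (log2 -0.67, SE 0.52, adjusted p = 0.563). Without both libraries numbered 3, an alternative chosen after seeing the data, COL5A1 was called at -1.76 (adjusted p = 0.0108) and CAMK2N1 at -0.49 (adjusted p = 3.01e-07). Libraries 1 and 2 were close to repeats, at a chi-square per gene of 1.60 in shSIRT1 cells and 1.55 in NTC cells. The p-values of this alternative may therefore rest on technical spread alone. VWA2, CNGA1 and C16orf89 differed by 0.21 (SE 0.28), 0.03 (SE 0.25) and -0.09 (SE 0.23) and their groups overlapped.

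The 3 genes too low to test in FBS are given as counts. MYOZ1 had 3, 1 and 1 counts in shSIRT1 libraries and 2, 5 and 0 in NTC libraries. DEGS2 had 5, 6 and 3 counts in shSIRT1 libraries and 7, 9 and 10 in NTC libraries, and MATN2 had 5, 2 and 8 in shSIRT1 libraries and 10, 10 and 14 in NTC libraries. MYOZ1, at 6.32 to 12.1 CPM in the vehicle libraries of both cell lines, was thus at most 0.364 CPM in FBS. The mean of NTC cells in FBS was below that of NTC cells with vehicle for all 10 genes, and below that of NTC cells with DHT for 7. The FBS and stripped-serum sets differ in depth and in the length RSEM took off each transcript, 50 bases against 224 to 252, so these levels were not tested against each other. Serum and sequencing set cannot be told apart there.

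The knockdown change itself was compared between vehicle and FBS in 1 fit of those 12 libraries, in which all 10 genes were tested. It differed for 3 genes, where 13.8% of 15345 genes did, 7.47% upward and 6.29% downward. The change in vehicle minus that in FBS was -2.05 for OPRK1 on the log2 scale (SE 0.25, adjusted p = 0.000188 by edgeR). The difference for SLC44A1 was -0.47 (SE 0.09, adjusted p = 0.00402) and that for DEGS2 was 2.07 (SE 0.44, adjusted p = 0.00603). CAMK2N1 had a difference of 0.56 (SE 0.19, adjusted p = 0.0733). For DEGS2 the FBS side rests on 14 counts in shSIRT1 cells and 26 in NTC cells over 3 libraries each. FBS libraries 1 and 2, which were close to repeats, entered this fit as separate libraries. The medium, the sequencing set and possibly the hairpin or clone change together between the 2 sides.

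Over the 18 stripped-serum libraries the genes' profiles were compared with each other and with those of other genes, as a description. These libraries share treatments and library numbers, so the correlations of log2 CPM carry both. The 45 pairs among the 10 genes had Pearson's r of -0.38 to 0.94, with a median of 0.72. OPRK1 stood apart at 0.20 with the mean of the other 9, while each of the others had 0.66 to 0.96. Among 12051 candidate genes, those most like the mean profile were TMEM38B at 0.979, PLDN at 0.975, ANXA9 at 0.974, ST5 at 0.972, FBXO2 at 0.969 and LOC100506990 at 0.968. TMEM38B, for example, averaged 83.8 ± 4.86 CPM with DHT plus enzalutamide, 44.1 ± 4.02 CPM with DHT and 86.3 ± 3.59 CPM with vehicle in knockdown cells. In NTC cells it averaged 91.1 ± 2.88, 44.1 ± 3.43 and 87.2 ± 3.88 CPM in the same conditions, so the cell lines were alike for it. OPRK1 was most like MAST4 (0.990), which averaged 41.6 ± 1.06 CPM in knockdown cells and 100.5 ± 3.83 CPM in NTC cells with vehicle. DEGS2 was most like TMEM144 (0.989), which averaged 257 ± 17.6 CPM in knockdown cells and 170.4 ± 12.8 CPM in NTC cells with vehicle. The nearest to the others were MYOZ1 with GUSBP1 (0.977), VWA2 with KLHL24 (0.979), SLC44A1 with FAM198B (0.972), CAMK2N1 with C5orf30 (0.969) and MATN2 with LOC642852 (0.968). COL5A1 was nearest to CCDC69 (0.947), C16orf89 to PTPRB (0.944) and CNGA1 to MBTD1 (0.938).

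The closest relatives of the genes did not share their response to DHT as a group. Of 33 relatives, grouped by gene symbol, 18 passed the filter in stripped serum. The grouping includes the CAMK2 kinases, which are targets of the CAMK2N1 product and not members of its family. In knockdown cells 4 of them rose and 2 fell with DHT, and in NTC cells again 4 rose and 2 fell. Over all genes 13.3% rose and 8.92% fell in knockdown cells, and 17.4% rose and 12.5% fell in NTC cells. DEGS1 rose with DHT, by 0.35 (log2, SE 0.12, adjusted p = 0.0411) in knockdown cells and 0.78 (SE 0.12, adjusted p = 8.39e-05) in NTC cells, whereas DEGS2 was lower. It averaged 493 ± 67.5 CPM with DHT and 386 ± 58.9 CPM with vehicle in knockdown cells, and 435 ± 55.2 CPM with DHT and 253 ± 24.4 CPM with vehicle in NTC cells. COL5A2, whose product joins that of COL5A1 in type V collagen, fell by 0.76 in knockdown cells (SE 0.10, adjusted p = 1.73e-05) and 0.83 in NTC cells (SE 0.09, adjusted p = 2.7e-06). COL3A1, of type III collagen, rose by 0.44 in knockdown cells (SE 0.11, adjusted p = 0.0093) and had 0.24 in NTC cells (adjusted p = 0.144). Of the choline transporter-like genes, SLC44A3 fell by 0.47 in knockdown cells (adjusted p = 0.000755) and 0.43 in NTC cells (adjusted p = 0.00107). SLC44A2 rose by 0.22 in knockdown cells (adjusted p = 0.00359) and 0.29 in NTC cells (adjusted p = 0.000249). CAMK2D, a kinase that the CAMK2N1 product inhibits, rose by 0.38 in knockdown cells (adjusted p = 0.00201) and 0.33 in NTC cells (adjusted p = 0.00434). Fibroblast markers were examined beside the collagens. Of 9 such markers, 5 were under 1 CPM in every library, and COL1A2 was at 0 in every stripped-serum library. Their summed level was 21.5 to 39.5 CPM in stripped serum, nearly all from COL1A1 and COL3A1.

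**Figure D4:**
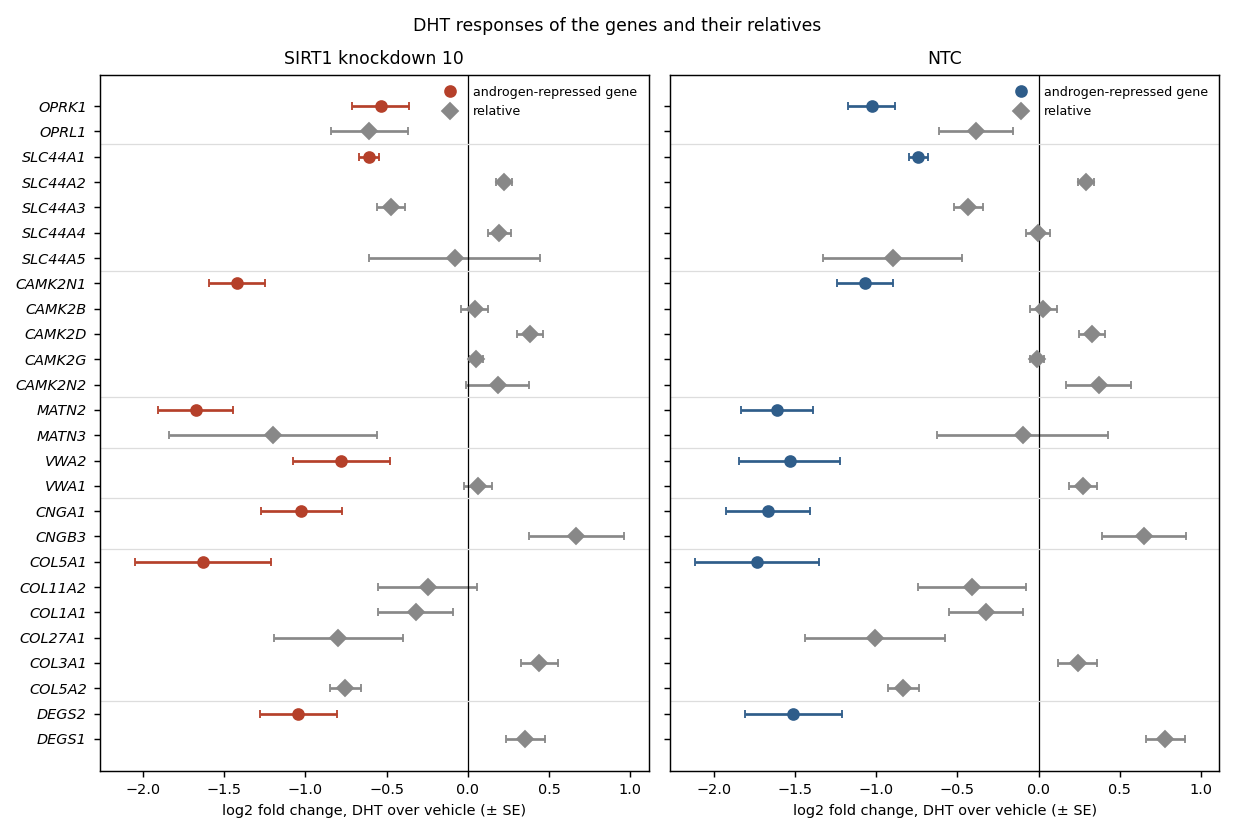
Log2 change with DHT over vehicle and its standard error for the genes (circles) and every tested relative by gene symbol (grey diamonds). SIRT1 knockdown 10 is on the left and NTC on the right. The kinases CAMK2B, CAMK2D and CAMK2G are plotted beside the inhibitor gene CAMK2N1. DEGS1 lies at 0.35 in knockdown cells and 0.78 in NTC cells, on the other side of 0 from DEGS2, and COL5A2 at -0.76 in knockdown cells and -0.83 in NTC cells, on the side of COL5A1.

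The wider circle of 66 relatives and partners, which adds enzymes, ligands and binding proteins, had 44 tested genes in stripped serum. With DHT, 5 rose and 3 fell in knockdown cells, and 6 rose and 3 fell in NTC cells. With the knockdown, 14 were higher and 3 lower with vehicle, 8 higher and 4 lower with DHT, and 13 higher and 4 lower with DHT plus enzalutamide. The shares over all genes were 15.5% higher and 19.1% lower with vehicle, 19.5% higher and 23.5% lower with DHT, and 15.4% higher and 19.2% lower with DHT plus enzalutamide. Of the ceramide genes, 5 of 11 were higher in knockdown cells with vehicle and 0 lower. SPTLC2, a subunit of the first enzyme of sphingolipid synthesis, was higher by 0.35 (SE 0.04, adjusted p = 1.17e-05), and SPTLC1, its partner, by 0.22 (SE 0.05, adjusted p = 0.00299). With DHT 4 of the 11 were higher, with DHT plus enzalutamide 5, and in FBS 0 were higher and 1 lower. Of the opioid genes OPRL1 alone passed the filter, and it differed by -0.03 (SE 0.22) between knockdown and NTC cells with vehicle, while OPRK1 fell. In FBS, of 42 tested relatives and partners, 0 were higher and 1 lower.

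A list of 25 other genes described as androgen-repressed was set beside the 10. Of the 23 tested, 7 fell and 2 rose with DHT in knockdown cells, and 12 fell and 2 rose in NTC cells. Over all genes 8.92% fell and 13.3% rose with DHT in knockdown cells, and 12.5% fell and 17.4% rose in NTC cells. With enzalutamide added, 5 rose and 2 fell in knockdown cells, and 11 rose and 3 fell in NTC cells. Over all genes 8.08% rose and 12.2% fell with it in knockdown cells, and 12.6% rose and 16.6% fell in NTC cells. The list's median DHT change was -0.22 in knockdown cells and -0.35 in NTC cells, smaller than the medians of the 10 genes, which were chosen for that change. DDC, which encodes aromatic amino acid decarboxylase, fell by 1.19 in knockdown cells (SE 0.09, adjusted p = 8.54e-08) and 1.07 in NTC cells (SE 0.08, adjusted p = 4.24e-08). TRPS1, a transcriptional repressor, fell by 0.42 in knockdown cells (adjusted p = 3.1e-05) and 0.63 in NTC cells (adjusted p = 1.61e-07). GRIN3A, a glutamate receptor subunit on the list, rose instead, by 1.57 in knockdown cells (adjusted p = 4.45e-07) and 2.08 in NTC cells (adjusted p = 6.05e-08). With the knockdown in vehicle, 5 of the list were higher and 6 lower. DDC was lower, with a log2 change of -1.07 (adjusted p = 6.2e-08), and GRIN3A higher at 2.26 (adjusted p = 3.12e-08). The counts were 9 higher and 3 lower with DHT, 5 higher and 6 lower with DHT plus enzalutamide, and 2 higher and 2 lower of 22 tested in FBS. Of all genes, 15.5% were higher and 19.1% lower with vehicle, and 19.5% higher and 23.5% lower with DHT. With DHT plus enzalutamide 15.4% were higher and 19.2% lower, and in FBS 0.509% were higher and 2.21% lower. Of 19 tested genes on a list of androgen-induced genes, 12 were lower and 0 higher with the knockdown in vehicle, 12 lower and 1 higher with DHT, and 13 lower and 0 higher with DHT plus enzalutamide. In FBS 3 were lower and 0 higher, where 2.21% of all genes were lower, against 19.1% with vehicle. Of the 10 genes described here, OPRK1 was lower and MYOZ1 and DEGS2 were higher in stripped serum. The other 7 were called in none of those comparisons without the library block.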

How the data were processed

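The 10 genes and all lists were chosen with earlier results of these data known. Per the submitters' processing notes, CASAVA 1.8.2 and RSEM 1.2.31 were used with hg19, and the aligner is not given in the sources used here. Per the file headers, the authors deposited for each library RSEM's expected count and its TPM per gene symbol. The stripped-serum and FBS sets were normalized and fitted apart, and levels were not tested between them. Expected counts were rounded to whole numbers, low genes were removed with filterByExpr by group, and edgeR 4.0.16 (R 4.3.3) supplied TMM scaling and the quasi-likelihood test, run two-sided. Adjusted p-values are Benjamini-Hochberg over all genes of a comparison, 14329 in FBS, 14558 in stripped serum and 15345 in the joint fit of FBS and vehicle libraries. CPM are TMM-scaled. Totals of 11.9 to 35.1 M counts limit the precision of the low genes. The knockdown was tested for the 10 genes in 5 comparisons, and 8 comparisons of DHT and enzalutamide were described.

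Alternatives were relative log expression factors, no filter, DESeq2 1.42.0, limma 3.58.1 on log2(TPM + 0.5), the library number as a block, and leaving out each library. Only the compared groups were also fitted in stripped serum, and FBS libraries 1 and 2 were summed in the FBS fit alone. Same-numbered libraries deviated together, with r of 0.14 to 0.35 in FBS, 0.12 to 0.36 with vehicle and 0.11 to 0.27 with DHT plus enzalutamide. They counted as pairs there, and not with DHT, where r was 0.08 to 0.30. The main tests used no block, so they leave this pairing out. The labels name no shared culture behind the numbers. In simulated data for the knockdown in FBS and in vehicle, 86% and 84.5% of 200 genes changed 2-fold were recovered, with 16 and 10 false calls. The simulation drew each library independently, without shared library numbers or the closeness of FBS libraries 1 and 2. Its rates therefore need not hold for these data. Named besides the 10 genes were SIRT1, KLK3 and up to 3 called genes of lowest adjusted p per list. Every tested relative by gene symbol was named in the plot of relatives. Also named were the genes most correlated with the 10 over the 18 stripped-serum libraries, among genes of average log2 CPM of at least 1. Relatives were split by gene symbol after values were seen.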

Additional observations from a re-analysis of the deposited data

Results flagged for a closer look

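The effect of the SIRT1 knockdown differed between media for 3 of the 10 genes, by edgeR's test of the change in vehicle minus the change in FBS, where 13.8% of 15345 genes did. The difference was -2.05 for OPRK1 (adjusted p = 0.000188), -0.47 for SLC44A1 (adjusted p = 0.00402) and 2.07 for DEGS2 (adjusted p = 0.00603), on the log2 scale. Over 17 alternatives each, the adjusted p ranged from 6.7e-13 to 0.00114 for OPRK1, 1.87e-05 to 0.0147 for SLC44A1 and 0.00192 to 0.019 for DEGS2. None of these alternatives summed FBS libraries 1 and 2, which were close to repeats. Where they were summed, in the FBS fit alone, the SLC44A1 change in FBS had an adjusted p of 0.193 by edgeR. The medium changes together with the sequencing set and possibly with the hairpin.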

How the results depend on the processing

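The calls of OPRK1, MYOZ1 and DEGS2 held under all 12 alternatives in each stripped-serum comparison. All 480 alternative values of the DHT and enzalutamide changes kept their sign. In FBS, 1 member was called, and 2 were with the replicate block, 0 with libraries 1 and 2 summed, 0 to 2 on leaving out 1 library, and 3 without both libraries numbered 3, a setting chosen after seeing the data. With DHT, 3 were called, and 5 with the replicate block or, of the settings leaving out 1 library (3 to 5), without knockdown DHT library 1. Over all genes, 7543 of 14558 were called with the block, and 6379 of 14715 without that library. The block added VWA2 (0.72, adjusted p = 3.73e-05) and C16orf89 (0.79, adjusted p = 0.00646) with DHT, and CAMK2N1 to the difference between media (0.54, adjusted p = 0.00455), and changed no call other than these and those named beside the results. CAMK2N1 joined the difference between media also with no filter (0.56, adjusted p = 0.0496), with DESeq2 (0.53, adjusted p = 0.0499) and without shSIRT1 library 3 or knockdown vehicle library 2 (0.70 and 0.69). In stripped serum 16 of 18 libraries were closest to libraries of their own number.

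Changes near 0 turned sign and stayed uncalled. In FBS, OPRK1 gave 0.0063 with the replicate block and 0.27 without both libraries numbered 3, CNGA1 -0.019 with libraries 1 and 2 summed, and C16orf89 0.0068 without both numbered 3. The difference between media gave COL5A1 -0.074 on TPM. On leaving out 1 library, the ranges in FBS were -0.11 to 0.21 for OPRK1, -0.039 to 0.39 for VWA2, -0.13 to 0.26 for CNGA1 and -0.21 to 0.026 for C16orf89. With vehicle they were -0.059 to 0.0030 for SLC44A1, -0.026 to 0.31 for CAMK2N1, -0.23 to 0.16 for VWA2, -0.24 to 0.050 for CNGA1 and -0.048 to 0.32 for C16orf89. With DHT plus enzalutamide they were -0.062 to 0.028 for SLC44A1, -0.29 to 0.056 for CAMK2N1, -0.19 to 0.19 for VWA2, -0.21 to 0.18 for CNGA1 and -0.0065 to 0.78 for C16orf89. For the difference between media they were -0.40 to 0.048 for VWA2, -0.083 to 1.76 for MYOZ1, -0.32 to 0.070 for CNGA1 and -0.33 to 1.18 for COL5A1.

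Over all genes, 389 were called in FBS, against 242 with limma on TPM, 1676 with the replicate block, 44 with libraries 1 and 2 summed 3426 without both numbered 3, and 103 to 926 on leaving out 1 library, each library but shSIRT1 library 3 (425) moving it by over 1.5 times. The difference between media had 2112 calls, and 3937 with the block. Low counts limit COL5A1, CNGA1 and DEGS2 most, and MYOZ1, MATN2 and DEGS2 could not be tested in FBS alone.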
